A study of Mus musculus with 25 samples.

Results

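The genes described here are 38 antiviral interferon-stimulated genes, measured in sorted mouse liver cells by bulk RNA sequencing. They were chosen by symbol, with earlier results of these data known. Each symbol was matched to its Ensembl gene identifier in 2 tables of raw gene counts. All 38 were found among the 18668 genes of the hepatocyte table and among the 51912 genes of the immune cell table. All 38 also passed the filter on low counts in both tables, although 7 of them (Oas1a, Oas2, Oas3, Oasl2, Mx1, Ubd and Ifi44) had at least 1 hepatocyte library with fewer than 10 counts.

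Type I and type III interferons bind receptors that activate JAK1 and TYK2, and a transcription factor complex that includes STAT2 and IRF9 then binds a DNA element called the interferon-stimulated response element (ISRE). Interferon-gamma acts mainly through the gamma-activated site (GAS), a palindromic element that STAT3 can also bind. Interleukin 6 (IL-6) acts on hepatocytes through gp130, JAK kinases and mainly STAT3, and is best known in the liver for inducing acute phase proteins. The products of interferon-stimulated genes sense viral nucleic acid, degrade or restrict viral RNA, modify proteins with ubiquitin-like tags and block viral entry or release.

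Hepatocytes were compared in 5 groups, and the labels give the strain of all mice as C57BL/6J 129SV. The GFP group (n = 2) and the IL-6 group (n = 3) were wild-type mice that had received a GFP or an IL-6 plasmid by hydrodynamic tail vein injection, a route that delivers DNA mainly to hepatocytes, for 1 week. The IL-6 STAT3KO group (n = 3) were Stat3-floxed mice given an AAV-TBG-Cre virus for 2 weeks and the IL-6 plasmid for 1 week. The DDC group (n = 2) and the DDC STAT3KO group (n = 3) were Stat3-floxed mice given AAV-TBG-GFP or AAV-TBG-Cre, respectively, for 2 weeks and a diet with DDC for 1 week. The TBG promoter restricts expression to hepatocytes, and DDC is a porphyrin-inducing compound whose feeding injures bile ducts. Genotype and viral vector differed together between IL-6 STAT3KO and IL-6, since the IL-6 and GFP plasmid mice carried neither floxed alleles nor virus, so their effects cannot be told apart. The immune libraries were from wild-type mice: macrophages on DDC or normal diet, and cells labelled as T cells, neutrophils, Ly6C-low monocytes and Ly6C-high monocytes on DDC, with n = 2 each. The labels do not say that the libraries of a group came from separate animals, so p-values measure the spread between libraries, which may be technical.

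Promoter windows, from 250 bases before to 50 bases after the annotated start, were given by RefSeq (GRCm38.p6) for 28 of the 38 genes. An ISRE core, spelled GAAANNGAAA or its reverse complement TTTCNNTTTC, occurred in the windows of 13 of the 28 genes (46.4%), against 3.99% of the 27025 genes with windows in the same table. A GAS-type palindrome, spelled TTCNNNGAA, occurred in 6 of the 28 (21.4%) against 9.55% of all genes. The 13 genes with an ISRE match were Ifih1, Ddx58, Eif2ak2, Ifit1, Ifit3, Oas1a, Oas3, Rsad2, Isg15, Trim21, Trim30a, Ifitm3 and Bst2. In Bst2 and in Ifitm3 the palindrome overlapped an ISRE match. The 160 bases before the start of 6 effector genes that the results below turn on are shown 5′ to 3′ on the gene's strand, with ISRE matches in capitals and Oasl2 as a gene without one.
Ifit1, chr19:34640729-34640888, strand +: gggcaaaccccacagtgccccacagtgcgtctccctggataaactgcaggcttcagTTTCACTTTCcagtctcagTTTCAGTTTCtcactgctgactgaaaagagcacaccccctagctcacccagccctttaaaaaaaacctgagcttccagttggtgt
Ifit3, chr19:34583369-34583528, strand +: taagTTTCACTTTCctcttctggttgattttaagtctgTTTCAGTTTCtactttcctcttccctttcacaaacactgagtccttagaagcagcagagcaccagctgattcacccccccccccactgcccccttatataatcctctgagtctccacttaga
Isg15, chr4:156200819-156200978, strand -: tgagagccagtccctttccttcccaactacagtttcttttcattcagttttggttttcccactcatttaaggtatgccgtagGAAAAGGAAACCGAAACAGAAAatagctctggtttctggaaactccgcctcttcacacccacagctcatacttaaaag
Rsad2, chr12:26456453-26456612, strand -: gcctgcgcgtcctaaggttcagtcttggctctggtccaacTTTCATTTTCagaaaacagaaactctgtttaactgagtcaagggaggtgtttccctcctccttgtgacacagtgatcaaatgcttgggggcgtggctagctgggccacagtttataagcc
Oas1a, chr5:120907526-120907685, strand -: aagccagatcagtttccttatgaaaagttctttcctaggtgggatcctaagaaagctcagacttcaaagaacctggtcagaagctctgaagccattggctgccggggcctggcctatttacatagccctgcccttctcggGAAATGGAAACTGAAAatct
Oasl2, chr5:114896774-114896933, strand +: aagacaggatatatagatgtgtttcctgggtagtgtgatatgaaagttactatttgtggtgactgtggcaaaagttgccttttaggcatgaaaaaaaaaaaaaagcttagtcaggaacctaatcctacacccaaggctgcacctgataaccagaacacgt

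The Ifit1 window held 2 matches, whose first bases lay 104 and 85 bases before the start, and the Ifit3 window held 2 at 156 and 122 bases. Isg15 had 3 overlapping matches at 78, 72 and 66 bases, Oas1a 2 overlapping ones at 20 and 14 bases, and Rsad2 a single one at 120 bases. A match describes only letters in a window, and its absence from Oasl2 says nothing of other positions.

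Several of the genes lie in clusters (GENCODE M21, GRCm38, whole gene with exons and introns). Ifit2 (chr19:34550694-34576419), Ifit3 (chr19:34583531-34588731) and Ifit1 (chr19:34640871-34650009) follow each other on the plus strand. Oas2 (chr5:120730333-120749853), Oas3 (chr5:120753098-120777661) and Oas1a (chr5:120896256-120907521) lie together on the minus strand, and Oasl2 (chr5:114896936-114912234) and Oasl1 (chr5:114923240-114937915) elsewhere on the same chromosome on the plus strand. Rsad2 (chr12:26442746-26456452) and Cmpk2 (chr12:26469204-26479837) are neighbours on opposite strands. Ifi44 (chr3:151730922-151749960), Samd9l (chr6:3372257-3399572), Rtp4 (chr16:23520291-23614222), Usp18 (chr6:121245906-121270917), Ifih1 (chr2:62595798-62646255) and Zbp1 (chr2:173206612-173218923) lie apart from these.

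Hepatocyte libraries held 13625040 to 18428988 counts and immune libraries 3817794 (neutrophil replicate 2) to 12945663. Levels below are CPM, counts per 1000000 counts of a library scaled by trimmed mean of M-values, and the hepatocyte and immune tables were scaled separately. Stat3, the deleted gene, was at 96.0 to 116 CPM in IL-6 STAT3KO against 339.7 to 424 with IL-6, and at 56.3 to 87.3 in DDC STAT3KO against 112 and 150 in DDC. The GFP plasmid libraries had 109 and 98.9 CPM of Stat3, so the IL-6 STAT3KO level was near that of wild-type mice without IL-6. Counts of the whole gene do not show whether the deleted exons were read. Il6 read 4.89, 3.21 and 351 CPM in the 3 libraries given the IL-6 plasmid alone and 0.743, 0.559 and 1.05 in those of IL-6 STAT3KO. The 2 groups did not overlap, and IL-6 replicate 3 stood far above the others. Whether these reads came from the plasmid or the endogenous gene was not tested. The part of this Il6 difference in the comparison of the 2 groups was not tested either. The summed level of 6 Kupffer cell markers was 19.5 and 25.2 CPM with the GFP plasmid, 116, 112 and 46.1 with IL-6, 85.2, 186 and 132 in IL-6 STAT3KO, 211 and 335 in DDC and 244, 287 and 38.2 in DDC STAT3KO. In these sorted samples, fewer cells of a type and less RNA per cell cannot be told apart.

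Across the 5 hepatocyte groups, the antiviral genes were highest where STAT3 had been deleted and the IL-6 plasmid given. The mean level was highest in IL-6 STAT3KO for 36 of the 38 genes, as for 15.6% of all genes tested, the exceptions being Samd9l and Sp100, which were highest in DDC. In 31 of 38, the lowest IL-6 STAT3KO library lay above every one of the other 10 hepatocyte libraries, as did 2.94% of all genes tested. The 38 genes summed to 776 and 748 CPM with the GFP plasmid, 830.2, 875 and 960.4 with IL-6, 2566, 2718 and 3699 in IL-6 STAT3KO, 1211 and 1031 in DDC and 1182, 1146 and 723 in DDC STAT3KO. The IL-6 STAT3KO sums did not overlap those of any other group. Within that group, replicate 3 was the highest for 29 of the 38 genes.

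**Figure D1:**
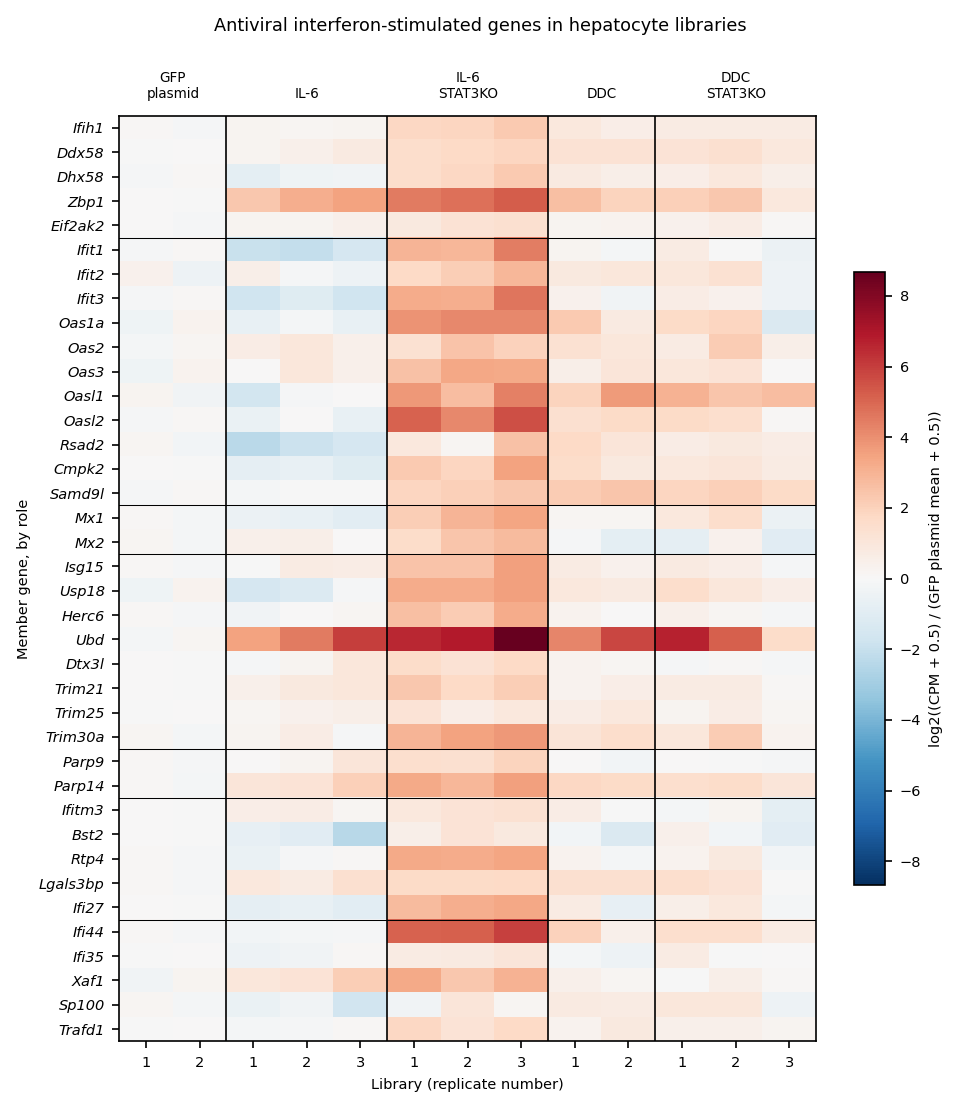
Level of each of the 38 genes in the 13 hepatocyte libraries, as the log2 ratio of CPM + 0.5 to the GFP plasmid mean + 0.5, with genes ordered by role. The 3 IL-6 STAT3KO columns are the highest for most genes, and the lowest of them lies above all other libraries for 31 of 38.

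Deletion of STAT3 under IL-6 was read from IL-6 STAT3KO against IL-6. Of the 38 genes, 33 rose and none fell at an adjusted p under 0.05, where 26.4% of all 14339 genes tested were called, 13% higher and 13.4% lower. All 38 had non-overlapping libraries, higher in IL-6 STAT3KO, as did 22% of all genes. The median log2 fold change was 2.37 over the 38 genes and 0.00 over all genes. Genes that did not pass were Oas2 (1.73), Ubd (2.70), Ifitm3 (0.66), Lgals3bp (0.62) and Sp100 (1.39), all with positive log2 fold changes.

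Against the GFP plasmid, 31 of 38 were higher in IL-6 STAT3KO and none was lower, where 3.12% of all genes were called, 2.26% higher and 0.865% lower. The median log2 fold change was 2.85 over the 38 genes and 0.02 over all genes. Libraries did not overlap for 36 of 38, against 22.2% of all genes. The 7 that did not pass were Ifit2 (2.58), Oas2 (3.25), Rsad2 (1.62), Ifitm3 (1.15), Bst2 (0.86), Ifi35 (0.89) and Sp100 (0.48). With GFP replicate 1 or 2 left out, 10 and 14 genes were called, the remaining GFP library being assumed to vary like the other groups. Called in every fit that left out 1 library were 9 genes: Ddx58, Ifih1, Zbp1, Oasl2, Samd9l, Herc6, Parp14, Rtp4 and Ifi44. Without IL-6 STAT3KO replicate 2 or 3, Lgals3bp, Mx1, Mx2 and Oas3 were not called (adjusted p = 0.0510 to 0.0751). Oas1a was not called without replicate 3 (0.0515), and Trim25 was not called without replicate 1 (0.0867) or 3 (0.0995). The IL-6 and GFP groups also differ from IL-6 STAT3KO in genotype and virus, as given above.

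All 5 nucleic acid sensors rose in IL-6 STAT3KO against both IL-6 and the GFP plasmid. Ifih1, which encodes MDA5, a cytosolic sensor of long double-stranded RNA, stood at 39.8 and 35.2 CPM in the GFP plasmid libraries, 44.9, 42.8 and 44.0 with IL-6, 128, 137 and 180.0 in IL-6 STAT3KO, 71.6 and 57.2 in DDC and 62.4, 62.0 and 62.7 in DDC STAT3KO. Its log2 fold change was 1.76 against IL-6 (SE 0.16, adjusted p = 2.04e-05) and 1.99 against the GFP plasmid (SE 0.19, adjusted p = 1.86e-04). IL-6 STAT3KO was the highest group without overlap, and the DDC groups lay between it and the GFP and IL-6 groups. Ddx58, which encodes the sensor RIG-I, stood at 22.4 and 23.0 CPM in the GFP plasmid libraries, 27.2, 31.0 and 39.0 with IL-6 and 67.9, 76.6 and 82.5 in IL-6 STAT3KO, with log2 fold changes of 1.22 against IL-6 (SE 0.17, adjusted p = 3.11e-04) and 1.74 against the GFP plasmid (SE 0.20, adjusted p = 5.34e-04). Zbp1, a sensor of Z-form nucleic acid that can trigger cell death, stood at 1.92 and 1.79 CPM in the GFP plasmid libraries, 11.2, 20.2 and 26.3 with IL-6, 52.6, 64.2 and 90.3 in IL-6 STAT3KO, 14.1 and 8.29 in DDC and 9.39, 11.2 and 3.89 in DDC STAT3KO. It was the sensor with the largest change against the GFP plasmid, 5.21 on the log2 scale (SE 0.56, adjusted p = 3.62e-04), and against IL-6 it rose by 1.84 (adjusted p = 0.00442). Dhx58, which encodes the regulatory helicase LGP2, rose by 2.52 against IL-6, and Eif2ak2, which encodes the kinase PKR that halts translation, by 0.90.

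Among the 11 effectors that act on RNA or translation, 10 rose against IL-6 and 8 against the GFP plasmid. Ifit1, whose product binds RNA caps that lack a host methyl mark, stood at 5.06 and 5.71 CPM in the GFP plasmid libraries, 1.03, 0.925 and 1.62 with IL-6, 45.1, 42.5 and 126 in IL-6 STAT3KO, 6.36 and 4.77 in DDC and 8.96, 5.36 and 3.67 in DDC STAT3KO. Its 2 ISRE matches are in the sequence shown above. The IL-6 STAT3KO libraries were the highest of the 13 and the IL-6 libraries the lowest, without overlap. Its log2 fold change was 5.89 against IL-6 (SE 0.53, adjusted p = 1.79e-05) and 3.73 against the GFP plasmid (SE 0.54, adjusted p = 0.00266). Its partner Ifit3, a neighbour on chromosome 19 whose product stabilises IFIT1, stood at 4.80 and 5.43 CPM in the GFP plasmid libraries, 1.18, 2.22 and 1.19 with IL-6, 51.9, 49.6 and 141 in IL-6 STAT3KO, 6.79 and 4.10 in DDC and 8.33, 6.77 and 3.67 in DDC STAT3KO, again highest in IL-6 STAT3KO and lowest with IL-6. Ifit3 rose by 5.71 against IL-6 (SE 0.52, adjusted p = 1.89e-05) and 3.98 against the GFP plasmid (SE 0.56, adjusted p = 0.00193). Replicate 3 was the highest IL-6 STAT3KO library for both genes.

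Oasl2, a relative of the enzymes that make 2′-5′ oligoadenylate and switch on RNase L, stood at 0.832 and 1.03 CPM in the GFP plasmid libraries, 0.474, 0.986 and 0.437 with IL-6, 49.5, 25.8 and 66.8 in IL-6 STAT3KO, 3.29 and 3.92 in DDC and 4.07, 3.36 and 1.05 in DDC STAT3KO. It had no ISRE match in its window, and its log2 fold change was 6.19 against IL-6 (SE 0.56, adjusted p = 1.79e-05) and 5.66 against the GFP plasmid (SE 0.64, adjusted p = 4.94e-04). All 3 IL-6 STAT3KO libraries were above the other 10, and the GFP and IL-6 libraries were at 0.437 to 1.03 CPM. Samd9l, which encodes a restriction factor of viral translation, stood at 8.0 and 9.01 CPM in the GFP plasmid libraries, 7.5, 8.45 and 8.36 with IL-6, 32.8, 37.3 and 44.1 in IL-6 STAT3KO, 40.2 and 46.2 in DDC and 32.0, 37.8 and 27.9 in DDC STAT3KO. Here the DDC libraries overlapped those of IL-6 STAT3KO. The log2 fold change of Samd9l was 2.23 against IL-6 (SE 0.17, adjusted p = 5.87e-06) and 2.16 against the GFP plasmid (SE 0.20, adjusted p = 1.33e-04), and the adjusted p against IL-6 was the smallest of the 38. Of the other effectors, Oas1a, Oas3, Oasl1, Cmpk2 and Rsad2 rose against IL-6 by 5.19, 3.51, 4.38, 3.87 and 3.79 on the log2 scale. Rsad2, which encodes viperin, stood at 6.85 and 4.95 CPM in the GFP plasmid libraries, 0.789, 1.29 and 1.81 with IL-6 and 11.5, 6.65 and 36.4 in IL-6 STAT3KO, so that the lowest IL-6 STAT3KO library was close to the GFP libraries.

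Both Mx genes, which encode dynamin-like GTPases that trap viral nucleocapsids, rose. Mx1 stood at 0.768 and 0.550 CPM in the GFP plasmid libraries, 0.316, 0.247 and 0.125 with IL-6 and 4.64, 8.64 and 11.8 in IL-6 STAT3KO, and Mx2 at 8.07 and 6.26 CPM in the GFP plasmid libraries, 10.1, 10.6 and 7.24 with IL-6 and 22.8, 40.6 and 49.8 in IL-6 STAT3KO. IL-6 STAT3KO libraries were above all others for both, with log2 fold changes against IL-6 of 5.17 and 2.02 (adjusted p = 3.76e-04 and 0.00344). Gene counts do not show whether these transcripts encode full-length proteins.

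Of the 8 genes for ubiquitin-like modifiers and their enzymes, 7 rose against IL-6 and 8 against the GFP plasmid. Isg15, which encodes the ubiquitin-like tag ISG15, stood at 6.59 and 5.71 CPM in the GFP plasmid libraries, 6.00, 10.2 and 9.92 with IL-6, 36.1, 35.8 and 79.2 in IL-6 STAT3KO, 10.4 and 8.15 in DDC and 10.7, 9.27 and 5.84 in DDC STAT3KO, with log2 fold changes of 2.53 against IL-6 (SE 0.35, adjusted p = 3.13e-04) and 3.03 against the GFP plasmid (SE 0.42, adjusted p = 0.00193). Usp18, whose product removes ISG15 and restrains the type I interferon receptor, stood at 4.03 and 6.47 CPM in the GFP plasmid libraries, 1.58, 1.97 and 4.87 with IL-6, 53.1, 53.4 and 66.3 in IL-6 STAT3KO, 10.1 and 9.40 in DDC and 16.4, 10.8 and 8.01 in DDC STAT3KO. Both were highest in IL-6 STAT3KO without overlap. Usp18 rose by 4.34 against IL-6 (SE 0.41, adjusted p = 2.30e-05) and 3.46 against the GFP plasmid (SE 0.46, adjusted p = 0.00142). Herc6, an ISG15 ligase in the mouse, stood at 7.23 and 6.47 CPM in the GFP plasmid libraries, 5.37, 7.09 and 7.80 with IL-6, 43.7, 32.8 and 67.5 in IL-6 STAT3KO, 8.75 and 7.13 in DDC and 9.25, 7.86 and 6.29 in DDC STAT3KO and rose by 2.83 and 2.81, respectively. Dtx3l, Trim21, Trim25 and Trim30a rose by 1.10, 1.34, 0.56 and 3.48 against IL-6. The Trim25 call, the smallest change among these, was lost against IL-6 with no filter on low counts (adjusted p = 0.0662), in the fit of the compared groups (0.0590) and without IL-6 replicate 1 or 2 or IL-6 STAT3KO replicate 1 or 3 (0.107 to 0.170), and against the GFP plasmid with no filter (0.0573).

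Ubd, which encodes the ubiquitin-like protein FAT10 that sends proteins to the proteasome, had 2 counts in all in the GFP libraries. It stood at 0 and 0.138 CPM in the GFP plasmid libraries, 5.76, 12.3 and 35.7 with IL-6, 52.8, 67.2 and 231 in IL-6 STAT3KO, 10.1 and 31.4 in DDC and 56.7, 20.4 and 1.20 in DDC STAT3KO. IL-6 STAT3KO libraries were above those of IL-6, but 1 DDC STAT3KO library, at 56.7 CPM, overlapped them. Its level was 1799 (95% exact counting interval 498 to 14858) times that of the GFP plasmid in IL-6 STAT3KO, 284 (95% exact counting interval 78.3 to 2346) times in IL-6 and 327 (95% exact counting interval 90.2 to 2702) times in DDC, and all 3 differences were called. These intervals cover counting error only.

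Parp9 and Parp14, which encode ADP-ribosyltransferases, both rose. Parp14 stood at 17.9 and 14.6 CPM in the GFP plasmid libraries, 34.7, 37.2 and 71.1 with IL-6, 162, 122 and 198 in IL-6 STAT3KO, 58.6 and 52.4 in DDC and 45.9, 50.7 and 34.7 in DDC STAT3KO, with log2 fold changes of 1.75 against IL-6 (SE 0.28, adjusted p = 8.62e-04) and 3.30 against the GFP plasmid (SE 0.36, adjusted p = 3.62e-04). It was higher in all IL-6 libraries than in the GFP libraries and higher again in IL-6 STAT3KO. Parp9 rose by 1.12 and 1.63, respectively. It shares exon sequence on the opposite strand with Dtx3l, and since the use of strand in counting is not given in the sources used here, reads of the overlap cannot be told apart.

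Of the 5 membrane and secreted products, 3 rose against IL-6 (Rtp4, Ifi27 and Bst2) and 3 against the GFP plasmid (Rtp4, Ifi27 and Lgals3bp). Rtp4, whose product is a chaperone that can curb antiviral responses, stood at 6.4 and 5.43 CPM in the GFP plasmid libraries, 3.71, 5.49 and 6.49 with IL-6, 60.7, 58.8 and 69.1 in IL-6 STAT3KO, 7.58 and 5.08 in DDC and 7.55, 10.9 and 4.94 in DDC STAT3KO. Its 3 IL-6 STAT3KO libraries were above the other 10, which lay between 3.71 and 10.9 CPM. Rtp4 rose by 3.58 against IL-6 (SE 0.30, adjusted p = 1.26e-05) and 3.41 against the GFP plasmid (SE 0.35, adjusted p = 3.34e-04). Ifi27, which encodes a mitochondrial and nuclear envelope protein, stood at 41.0 and 38.5 CPM in the GFP plasmid libraries, 22.7, 25.1 and 21.3 with IL-6 and 271, 352 and 406 in IL-6 STAT3KO and rose by 3.90 and 3.11, respectively. Bst2, which encodes tetherin, a protein that holds virus particles on the cell surface, stood at 166 and 164 CPM in the GFP plasmid libraries, 101, 82.4 and 30.9 with IL-6, 232, 371 and 294 in IL-6 STAT3KO, 139 and 69.3 in DDC and 225, 143 and 83.5 in DDC STAT3KO. It rose against IL-6 by 2.06 (SE 0.45, adjusted p = 0.00578), while the difference from the GFP plasmid was 0.86 (adjusted p = 0.381). Lgals3bp, which encodes a secreted glycoprotein, stood at 46.4 and 42.0 CPM in the GFP plasmid libraries, 85.2, 71.2 and 118 with IL-6, 138, 138 and 146 in IL-6 STAT3KO, 117 and 114 in DDC and 121, 100.3 and 43.7 in DDC STAT3KO. It rose against the GFP plasmid by 1.67 and was at 0.62 against IL-6. Ifitm3, which encodes a protein that blocks fusion of entering virus, was called in neither, at 0.66 and 1.15.

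Among the remaining 5 genes, 4 rose against IL-6 and 3 against the GFP plasmid. Ifi44, which encodes an interferon-induced cytosolic protein, stood at 1.02 and 0.826 CPM in the GFP plasmid libraries, 0.710, 0.740 and 0.811 with IL-6, 48.8, 50.6 and 86.5 in IL-6 STAT3KO, 5.25 and 1.47 in DDC and 3.39, 3.36 and 1.87 in DDC STAT3KO. Its IL-6 STAT3KO libraries were above the other 10. The log2 fold change, the largest of the 33 called against IL-6, was 6.34 against IL-6 (SE 0.49, adjusted p = 7.05e-06) and 6.05 against the GFP plasmid (SE 0.58, adjusted p = 1.86e-04). Xaf1, which encodes a pro-apoptotic partner of XIAP, stood at 2.88 and 4.47 CPM in the GFP plasmid libraries, 7.66, 9.12 and 17.5 with IL-6, 39.9, 21.1 and 33.3 in IL-6 STAT3KO, 5.09 and 4.19 in DDC and 3.49, 5.31 and 4.04 in DDC STAT3KO, and rose by 1.46 and 3.10 in IL-6 STAT3KO, relative to the IL-6 and GFP groups respectively. Trafd1 rose by 1.64 and 1.60. Ifi35 rose by 1.11 against IL-6 and was at 0.89 against the GFP plasmid (adjusted p = 0.0989). Sp100, a component of nuclear bodies, was called in neither.

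**Figure D2:**
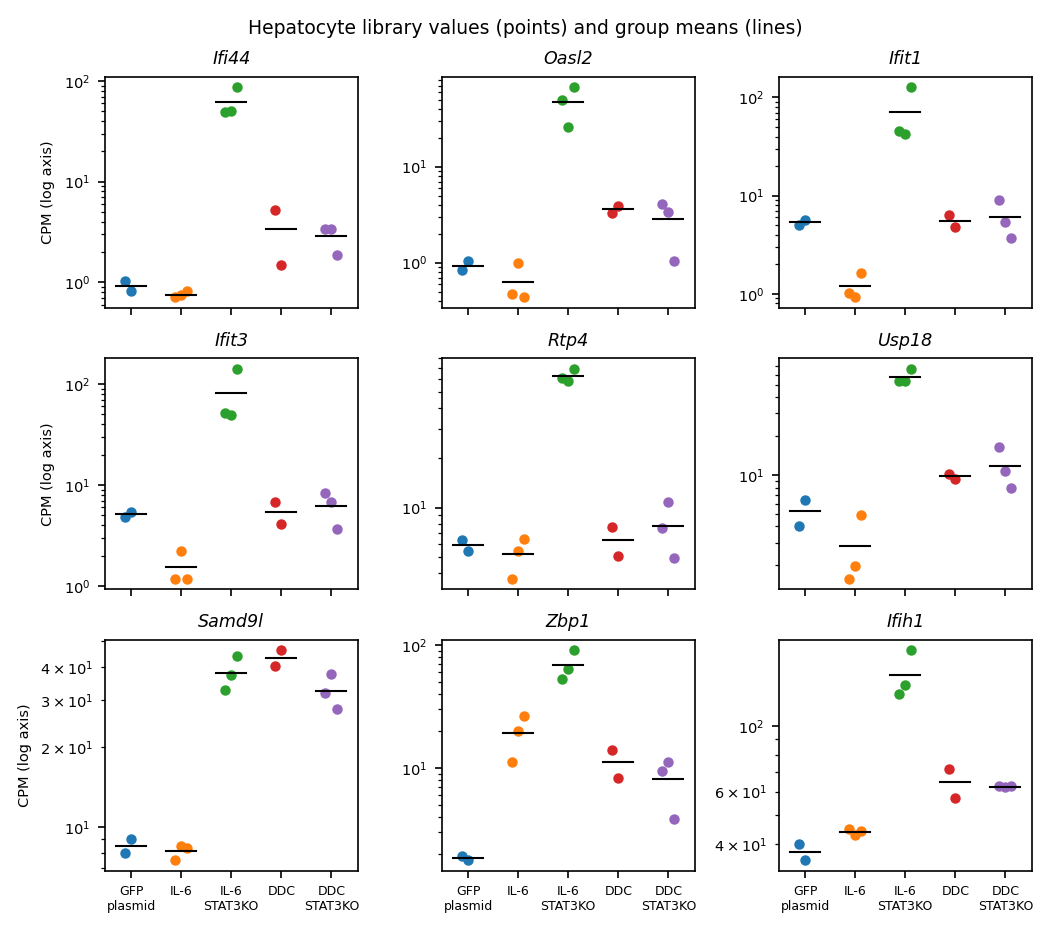
CPM of 9 of the genes in each of the 13 hepatocyte libraries on log axes, with a point per library and a line at the group mean. The IL-6 STAT3KO points lie above the IL-6 and GFP points for all 9, and the DDC points of Samd9l overlap them.

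Markers of other cell types were set beside this result. Of 6 Kupffer cell and 6 macrophage markers, edgeR called 0 in IL-6 STAT3KO relative to IL-6, and 0 had an unadjusted p under 0.05. Relative to the GFP plasmid edgeR also called 0, but 5 of the 6 Kupffer cell and all 6 macrophage markers were higher at an unadjusted p under 0.05, and the macrophage markers summed to 16.4 and 22.1 CPM with the GFP plasmid, 89.3, 84.3 and 54.3 with IL-6 and 51.1, 148 and 102 in IL-6 STAT3KO. Their part in the difference from the GFP plasmid was not tested. The summed Kupffer cell markers overlapped between IL-6 and IL-6 STAT3KO, and the part of these cells in that difference was not tested. At an unadjusted edgeR p under 0.05 relative to IL-6, 3 of 7 hepatocyte markers were higher in IL-6 STAT3KO and 1 was lower. Also lower were 2 of 3 neutrophil markers, 1 of 6 monocyte markers and the 1 cholangiocyte marker tested. Dendritic, endothelial and stellate cell markers gave 0 at that p. The part of these cell types was not tested. Of 6 T cell markers, Cd4 and Cd8a had a row in the hepatocyte table. Cd4 was at 2.91, 2.98 and 3.85 CPM in IL-6 STAT3KO and at most 0.936 CPM in any other hepatocyte library, and rose against IL-6. Cd8a was at most 0.248 CPM, and the other 4 T cell markers were not analysed in hepatocytes. The part of T cells in the result was not tested. Of the 4 plasmacytoid dendritic cell markers 1 is Bst2 itself, and Siglech was at 0 in the IL-6 libraries, at 0.495, 0.745 and 0.583 CPM in IL-6 STAT3KO and at 0.583 and 0.980 in DDC. Siglech had 1 and 2 counts with the GFP plasmid and 6, 19 and 7 in DDC STAT3KO. Tcf4 had 189, 211 and 210 counts with IL-6 and 186, 233 and 254 in IL-6 STAT3KO. Ccr9 had 1, 2 and 2 counts with IL-6 and 3, 2 and 3 in IL-6 STAT3KO. The part of these cells was not tested.

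Effects of STAT3 deletion under DDC were read from DDC STAT3KO against DDC, both on floxed mice given an AAV-TBG virus. None of the 38 genes passed edgeR's test, as none of all 14339 genes did (0%). DESeq2 called 0 of the 38 and 15 genes in all, and at an unadjusted p under 0.05 edgeR gave 1 of the 38, Samd9l. The median log2 fold change was -0.06 over the 38 genes and 0.01 over all genes. Approximate 95% intervals excluded a rise of 1 on the log2 scale for 23 of the 38 genes and a rise of 2 for 36, and for 14 the whole interval lay between -1 and 1. Libraries did not overlap for 1 of the 38 in the higher direction (9.35% of all genes) and for 5 in the lower (9%). The 4 genes with the smallest adjusted p, tied at 0.853, were Samd9l (-0.41, interval -0.79 to -0.02), Ifitm3 (-0.55, -1.22 to 0.12), Trim25 (-0.44, -0.89 to 0.02) and Ifi35 (0.58, -0.00 to 1.16). For Samd9l, the DDC STAT3KO libraries at 32.0, 37.8 and 27.9 CPM were all below the DDC libraries at 40.2 and 46.2. DDC STAT3KO replicate 3 had the lowest summed Kupffer cell markers of its group, 38.2 CPM, and the lowest sum of the 38 genes, 723 CPM.

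The difference between the 2 effects of deletion was tested as an interaction, the change of IL-6 STAT3KO against IL-6 less that of DDC STAT3KO against DDC. It was called for 24 of the 38 genes, all with a larger change under IL-6, where 8.28% of all genes were called, 4.2% in that direction and 4.08% in the other. The median was 2.43 over the 38 genes and -0.02 over all genes. Ifi44 changed by 6.34 under IL-6 and differed by -0.20 under DDC, an interaction of 6.54 (SE 0.64, adjusted p = 1.89e-04). Oasl2 changed by 6.19 and differed by -0.33, an interaction of 6.52 (SE 0.72, adjusted p = 3.31e-04). These were the largest interactions among the called genes. Interactions of 5.77 for Ifit1, 5.49 for Ifit3, 4.07 for Usp18, 3.27 for Rtp4, 2.64 for Samd9l and 1.80 for Ifih1 had SEs of 0.24 to 0.69 and adjusted p from 1.50e-04 to 0.0012. Trim25, Dtx3l, Zbp1, Mx1 and Trim30a each lost this call in at least 1 fit that left out a library (adjusted p = 0.0590 to 0.189), and the other 19 kept it in each such fit. By role, the interaction was called for 4 of 5 sensors, 8 of 11 RNA effectors, 1 of 2 GTPases, 6 of 8 ubiquitin-like genes, 1 of 2 ADP-ribosyltransferases, 2 of 5 membrane and secreted products and 2 of the remaining 5. The IL-6 arm differs in genotype and in having virus. In the DDC arm both groups were floxed and had a virus, AAV-TBG-GFP or AAV-TBG-Cre. This difference between the arms cannot be told apart from that of IL-6 and DDC.

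**Figure D3:**
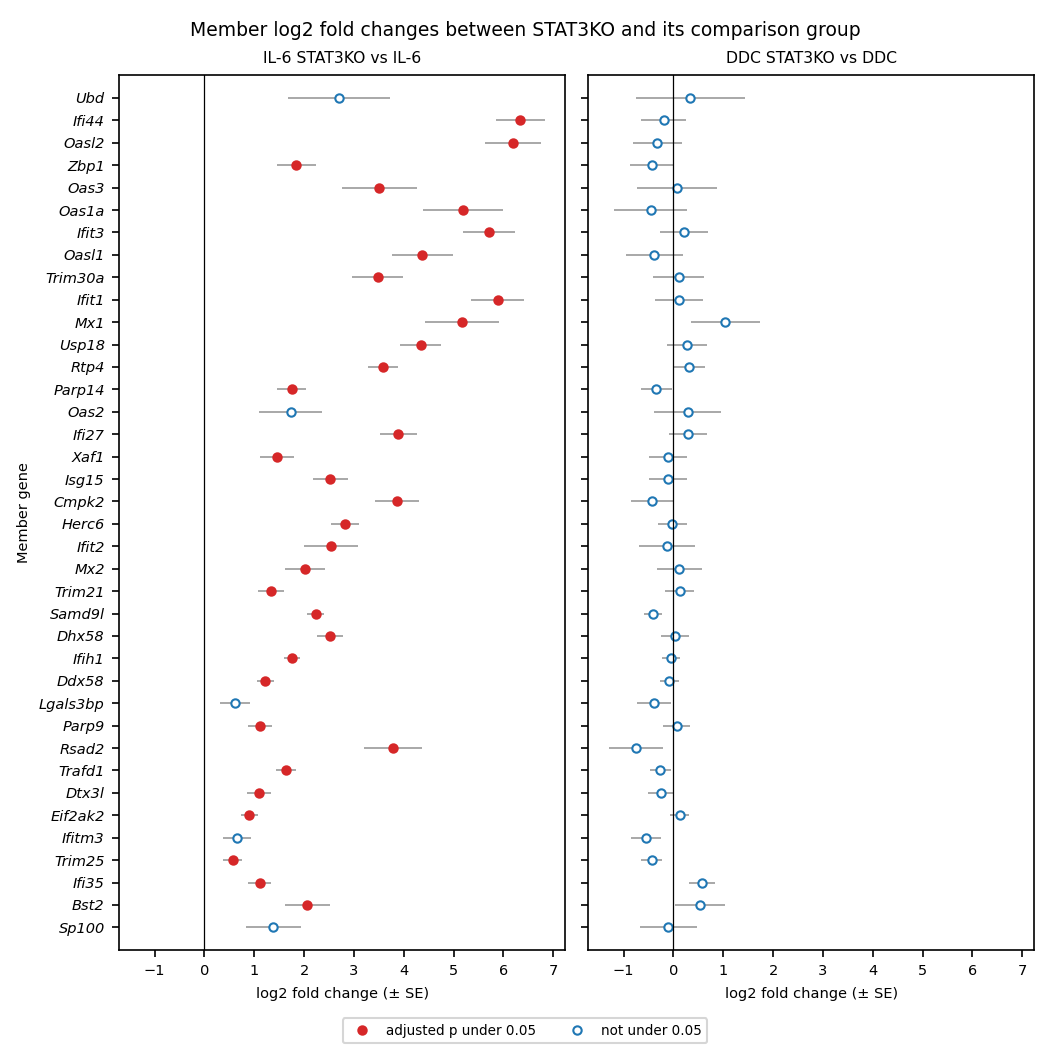
Log2 fold change of each of the 38 genes with its standard error for IL-6 STAT3KO relative to IL-6 and for DDC STAT3KO relative to DDC, filled where the adjusted p was under 0.05. The first set lies above 0 for all 38 genes with 33 called, and the second lies around 0 with none called.

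IL-6 STAT3KO and DDC STAT3KO share genotype and Cre virus and differ in plasmid and diet. Of the 38 genes, 26 were higher in IL-6 STAT3KO and none lower, where 9.83% of all genes were called, 5.01% higher and 4.83% lower, and the median log2 fold change was 1.77 over the 38 genes and -0.03 over all genes. Libraries did not overlap for 31 of 38, as for 13.3% of all genes. Ifi44, at 48.8, 50.6 and 86.5 CPM against 3.39, 3.36 and 1.87, had the largest called change, 4.41 (SE 0.43, adjusted p = 1.64e-04). Oasl2 was 4.04 higher, Ifit3 3.68, Ifit1 3.56, Rtp4 3.0, Xaf1 2.87, Herc6 2.62 and Ifih1 1.25 on the log2 scale, with SEs of 0.16 to 0.48 and adjusted p from 1.64e-04 to 7.77e-04. Samd9l, at 32.8, 37.3 and 44.1 CPM against 32.0, 37.8 and 27.9, differed by 0.22 (adjusted p = 0.417). The other genes that did not pass were Ddx58, Ifit2, Oas2, Oasl1, Rsad2, Ubd, Trim25, Bst2, Lgals3bp, Ifi35 and Sp100. In a fit of these 2 groups alone, Mx1, Cmpk2, Eif2ak2, Ifitm3, Trim30a and Oas1a were no longer called (adjusted p = 0.0505 to 0.110). Mx1, Oas1a, Oas3, Trim30a and Eif2ak2 each lost their call in at least 1 fit without a library (adjusted p = 0.0509 to 0.116), all 5 of them without IL-6 STAT3KO replicate 3.

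With wild-type STAT3, IL-6 against the GFP plasmid gave changes in both directions among these genes. Of the 38, 5 rose and 3 fell, where 25.9% of all genes changed, 13.7% higher and 12.2% lower, shares close to those of all genes. The median log2 fold change was 0.01 over the 38 genes and 0.04 over all genes. Zbp1 had the smallest adjusted p, rising from 1.92 and 1.79 CPM to 11.2, 20.2 and 26.3 (log2 fold change 3.37, SE 0.52, adjusted p = 8.28e-04), and it alone was called in every fit that left out 1 library. Parp14 rose from 17.9 and 14.6 CPM to 34.7, 37.2 and 71.1 (log2 fold change 1.55, SE 0.33, adjusted p = 0.00505) and Xaf1 from 2.88 and 4.47 to 7.66, 9.12 and 17.5 (log2 fold change 1.64, SE 0.41, adjusted p = 0.0117). For these 3 genes every IL-6 library lay above both GFP libraries. Lgals3bp rose by 1.05 (SE 0.35, adjusted p = 0.0439), and Ubd is given as a ratio above.

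The 3 genes that fell with IL-6 were Ifit1, Ifit3 and Rsad2. Ifit1 went from 5.06 and 5.71 CPM to 1.03, 0.925 and 1.62 (log2 fold change -2.16, SE 0.53, adjusted p = 0.0114). Ifit3 went from 4.80 and 5.43 to 1.18, 2.22 and 1.19 (log2 fold change -1.73, SE 0.53, adjusted p = 0.0313), and Rsad2 from 6.85 and 4.95 to 0.789, 1.29 and 1.81 (log2 fold change -2.16, SE 0.60, adjusted p = 0.0205). All 3 libraries with IL-6 were below both GFP libraries in each gene. Leaving out GFP replicate 1 or 2 leaves 1 GFP library, and calls fell both among the 38 genes and among all genes. The median log2 fold change over the 38 was then 0.19 and 0.02. The call of Ifit3 was also lost without IL-6 replicate 1 or 3 (adjusted p = 0.0890 and 0.0848), that of Rsad2 without IL-6 replicate 1 or 2 (0.0695 and 0.0608), and that of Lgals3bp with no filter on low counts (0.0502) and without IL-6 replicate 1 or 3 (0.0708 and 0.118). Kupffer cell markers, 3 of 6 of which rose with IL-6, moved with this comparison. At an unadjusted edgeR p under 0.05, 6 of 6 macrophage, 3 of 3 neutrophil and 4 of 6 monocyte markers were also higher. The same held for 1 of 5 stellate cell markers and the 1 cholangiocyte marker tested. Lower at that p were 3 of 7 hepatocyte markers and 1 of 2 plasmacytoid dendritic cell markers other than Bst2. The part of these cells was not tested. The 7 hepatocyte markers summed to 17164 CPM in IL-6 replicate 3 against 106637 and 48666 in the others, and without that replicate the count was 7.

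DDC against the GFP plasmid shares the 2 GFP libraries with the comparisons above. Of the 38 genes, 11 rose and none fell, where 18.6% of all genes changed, 10.4% higher and 8.29% lower. The median log2 fold change was 0.79 over the 38 genes and 0.02 over all genes, and 27 genes had all DDC libraries above both GFP libraries, as had 36.5% of all genes. The reverse held for Bst2 and Ifi35, 2 of 38, as for 34.8% of all genes. Samd9l rose from 8.0 and 9.01 CPM to 40.2 and 46.2 (log2 fold change 2.34, SE 0.21, adjusted p = 2.15e-04). Ddx58 rose from 22.4 and 23.0 to 53.8 and 55.2 (log2 fold change 1.26, SE 0.21, adjusted p = 0.00319) and Parp14 from 17.9 and 14.6 to 58.6 and 52.4 (log2 fold change 1.77, SE 0.35, adjusted p = 0.007). The DDC libraries of these genes were above those of GFP without overlap. Oasl1, an oligoadenylate synthetase relative that restrains IRF7 translation, rose from 4.10 and 2.55 to 14.4 and 49.1 (log2 fold change 3.25, SE 0.71, adjusted p = 0.0108), and Zbp1 from 1.92 and 1.79 to 14.1 and 8.29 (log2 fold change 2.58, SE 0.54, adjusted p = 0.00857). Ifih1 rose by 0.78 (SE 0.20, adjusted p = 0.0188), Lgals3bp by 1.39, Trim25 by 0.79, Ifi44 by 1.84 and Oasl2 by 1.95. Ifit1 and Ifit3 were at 6.36 and 4.77 and at 6.79 and 4.10 CPM, with log2 differences of 0.05 and 0.09 from the GFP plasmid (adjusted p = 0.964 and 0.931).

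Fits without 1 GFP or 1 DDC library leave 1 library in that group, and calls fell both among the 38 genes and among all genes. The median log2 fold change over the 38 was 0.72 and 0.68 without GFP replicate 1 or 2. It was 0.73 and 0.87 without DDC replicate 1 or 2. Samd9l and Ddx58 were called in all 4 of these fits. Ifi44 was at 1.84 with both DDC libraries and at 0.67 (adjusted p = 0.410) without DDC replicate 1, and its adjusted p was 0.0974 in a fit of the DDC and GFP groups alone. All 6 macrophage markers and 5 of 6 Kupffer cell markers rose in DDC against GFP, the macrophage markers summing to 123 and 234 CPM against 16.4 and 22.1, and 3 of 6 monocyte markers rose as well. The 5 stellate cell markers, of which edgeR called 0, were all higher at an unadjusted p under 0.05 and summed to 166 and 207 CPM against 54.4 and 48.1. Of the other lists, 1 of 3 plasmacytoid dendritic cell markers and the 1 cholangiocyte marker tested rose, and 1 of 7 hepatocyte markers fell. The part of these cells in the result was not tested. Floxed alleles, virus, plasmid and diet all differ between DDC and GFP and cannot be told apart.

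**Figure D4:**
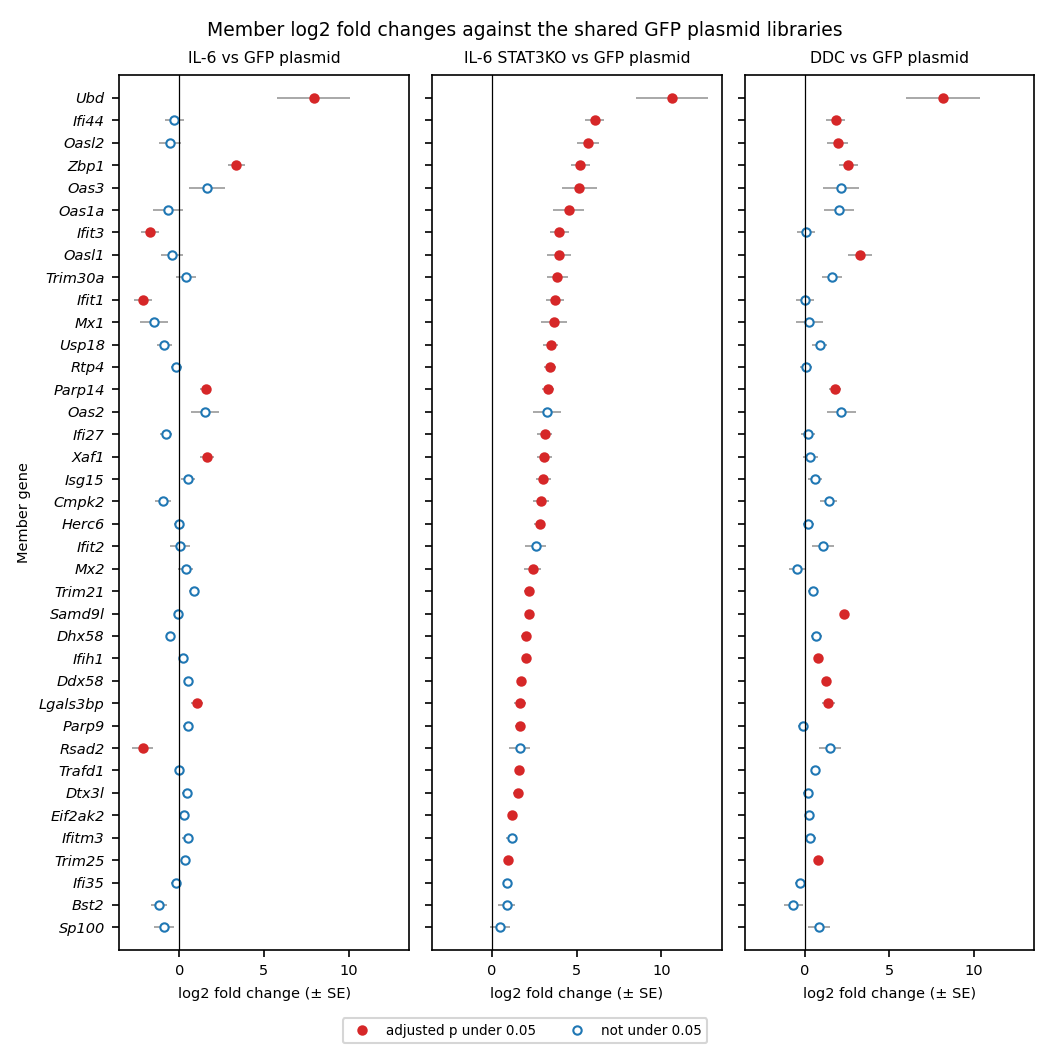
Log2 fold change of each of the 38 genes with its standard error against the GFP plasmid, in IL-6, IL-6 STAT3KO and DDC hepatocytes, filled where the adjusted p was under 0.05. All 3 use the same 2 GFP libraries, and 8, 31 and 11 genes were called, respectively.

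Genes upstream in the interferon pathway were taken from lists chosen by function, with earlier results of these data known. Among signal transduction genes, Irf9, the DNA-binding subunit of the complex that recognises the ISRE, stood at 20.04 and 24.0 CPM in the GFP plasmid libraries, 20.6, 27.3 and 30.1 with IL-6, 62.0, 56.6 and 58.1 in IL-6 STAT3KO, 21.3 and 20.5 in DDC and 20.5, 27.8 and 26.5 in DDC STAT3KO. Its IL-6 STAT3KO libraries were above the other 10, and Irf9 rose there by 1.18 against IL-6 (SE 0.17, adjusted p = 4.33e-04) and 1.42 against the GFP plasmid (SE 0.20, adjusted p = 0.00197). Stat2, another subunit, was called in no hepatocyte comparison, at 0.17 and 0.82 in the same comparisons (adjusted p = 0.728 and 0.23). Of 6 interferon regulatory factors, Irf1, Irf7 and Irf8 rose in both comparisons and Irf5 rose against IL-6 alone, where 13% of all genes rose against IL-6 and 2.26% against the GFP plasmid. Irf7, the factor that amplifies interferon transcription, stood at 12.6 and 13.7 CPM in the GFP plasmid libraries, 7.5, 11.1 and 9.92 with IL-6, 157, 153 and 222 in IL-6 STAT3KO, 38.6 and 32.1 in DDC and 42.1, 38.6 and 21.9 in DDC STAT3KO. It rose by 4.22 against IL-6 (SE 0.28, adjusted p = 3.03e-06) and by 3.75 against GFP (SE 0.33, adjusted p = 1.09e-04), and in DDC against GFP by 1.42 (adjusted p = 0.0107). Irf5 fell by 2.15 with IL-6 against GFP (adjusted p = 1.34e-04).

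Targets typical of interferon-gamma, such as the immunity-related GTPases and the immunoproteasome, were taken as a list of 16. Of these, 15 rose in IL-6 STAT3KO relative to IL-6, where 13% of all genes rose. Relative to the GFP plasmid 14 rose, where 2.26% of all genes rose. Tap1 was the 1 of 16 that rose in IL-6 against the GFP plasmid, where 13.7% of all genes rose. The 16 genes summed to 435 and 454 CPM with the GFP plasmid, 476, 558 and 859 with IL-6 and 5410.2, 4635 and 7247 in IL-6 STAT3KO. The sums of the IL-6 STAT3KO libraries were above all others, which reached 859 CPM. In DDC against GFP, Gbp2 and Cxcl10 rose by 3.44 and 5.17 and Igtp fell by 1.24 on the log2 scale. Igtp, one of the immunity-related GTPases, rose by 5.49 in IL-6 STAT3KO against IL-6 (SE 0.33, adjusted p = 1.84e-06).

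In IL-6 against the GFP plasmid 13.7% of all genes were called higher, and in IL-6 STAT3KO relative to IL-6 13.4% were called lower, the shares beside which the following counts stand. Of 6 interferon receptor genes, 5 rose with IL-6 against GFP and 5 fell in IL-6 STAT3KO relative to IL-6, while edgeR called 0 in IL-6 STAT3KO against GFP, with Ifngr2 and Il10rb at an unadjusted p under 0.05. Ifnar1, a subunit of the type I receptor, was at 50.1, 52.7 and 69.9 CPM with IL-6 and 42.6, 35.4 and 33.4 in IL-6 STAT3KO and fell by 0.63 (adjusted p = 0.0211). Ifnar2, Ifngr1 and Ifngr2 rose with IL-6 by 0.91, 1.16 and 1.36. Socs1, an inhibitor of JAK kinases, stood at 0.256 and 0.206 CPM in the GFP plasmid libraries, 24.6, 29.9 and 15.8 with IL-6, 24.4, 8.26 and 31.9 in IL-6 STAT3KO, 0.424 and 0.223 in DDC and 0.242, 0.227 and 0.150 in DDC STAT3KO. It was high in both groups with the IL-6 plasmid and near 0 in the others, with log2 fold changes against GFP of 6.61 in IL-6 and 6.49 in IL-6 STAT3KO (adjusted p = 7.08e-05 and 3.62e-04). Socs3, a STAT3 target that inhibits gp130 signalling, was at 216 to 292 CPM with IL-6 and at 3.97 to 6.69 in IL-6 STAT3KO. Of 8 negative regulators, 4 rose with IL-6 and 3 fell in IL-6 STAT3KO relative to IL-6. Of 13 nucleic acid sensing genes outside the 38, 4 rose with IL-6 and 2 fell in IL-6 STAT3KO relative to IL-6, the second a share close to that of all genes. Tlr3, a receptor of double-stranded RNA in endosomes, rose in IL-6 STAT3KO against GFP by 2.05.

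Interferon transcripts themselves were barely measured in hepatocytes. Of 20 interferon ligand genes, Ifnk had a row in the hepatocyte table, at 0 to 0.256 CPM, and the other 19 were not analysed there. In the immune table, 5 of the 20 passed the filter and edgeR called none, with Ifne in neutrophils and Ifna15 in the T cell libraries at an unadjusted p under 0.05 against monocytes. The highest was Ifna15 at 13.6 CPM in T cell replicate 1, and Ifnb1 and Ifng reached 4.56 and 4.27 CPM.

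Levels of different genes were compared per kilobase of exon. With the GFP plasmid the antiviral genes were led by Ifitm3 at 223 CPM per kb, Bst2 at 183 and Ifi27 at 27.1, and the lowest were Oas2 at 0.0602 and Oas3 at 0.0195. In IL-6 STAT3KO the order began with Ifitm3 at 496, Bst2 at 331, Ifi27 at 234, Ubd at 126 and Isg15 at 66.6. Ubd, with 2 counts in the GFP plasmid libraries, was among the leading genes there. The genes with the largest called fold changes against IL-6, Ifi44, Oasl2 and Ifit1, reached 10.1, 7.43 and 26.9 CPM per kb.

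Genes with and without an ISRE match in their window are set side by side as a description. In IL-6 STAT3KO against GFP the median log2 fold change was 2.20 over the 13 genes with a match and 2.58 over the 15 without. Against IL-6 the medians were 2.53 and 2.23.

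In sorted immune cells the 38 genes were detected in every population. They summed to 4779 and 4584 CPM in DDC macrophages, 2364 and 3846 in normal-diet macrophages, 2780.3 and 3226 in Ly6C-low and 5383 and 3866 in Ly6C-high monocytes, 3185 and 1391 in neutrophils and 2812 and 2752 in the libraries labelled T cell. The highest group mean was in DDC macrophages for 14 of 38, in Ly6C-high monocytes for 11, in the T cell libraries for 5, in neutrophils for 4, and in Ly6C-low monocytes and normal-diet macrophages for 2 each. Ifitm3 alone was 2872 and 1634 CPM in Ly6C-high monocytes. Neutrophil replicate 2, the shallowest library, was below replicate 1 for 27 of 38 and had 0 counts of Oas3 and Mx2. For these counts, and those of highest group means, the share over all genes was not computed, so they describe the 38 genes alone. The libraries labelled T cell had the highest summed T cell markers, 255 and 232 CPM against at most 74.7 in any other immune library. Cd3d was at 68.9 and 80.3 CPM there, Cd3g at 90.0 and 68.1 and Trac at 56.2 and 43.0, while Cd3e was at 0.241 and 1.23. Kupffer cell markers summed to 4251 and 6505 CPM in the same libraries. They summed to 406 and 363 in Ly6C-low monocytes and 24502 and 19985 in DDC macrophages. The libraries labelled T cell had the highest immune sums of hepatocyte markers, 3820 and 2469 CPM, and of stellate cell markers, 1354 and 1611. The same held for plasmacytoid dendritic cell markers, which include Bst2, at 397 and 409 CPM. Siglech had 1768 and 1398 counts there and at most 287 elsewhere. Macrophage, neutrophil and endothelial sums were higher in other immune groups. The part of these cells was not tested.

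**Figure D5:**
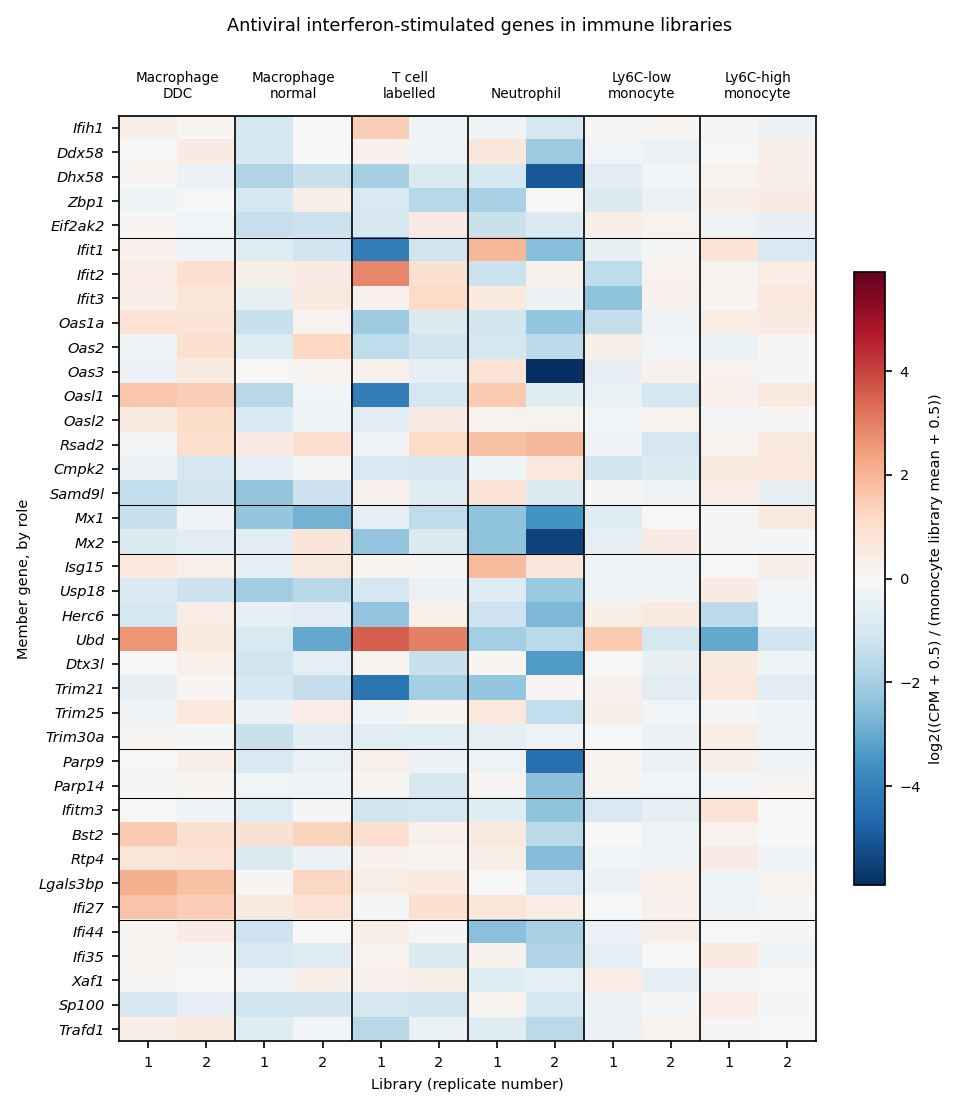
Level of each of the 38 genes in the 12 immune libraries, as the log2 ratio of CPM + 0.5 to the mean of the 4 monocyte libraries + 0.5, in the same gene order as for hepatocytes. DDC macrophages and Ly6C-high monocytes have the highest group mean for 14 and 11 of the 38 genes, and neutrophil replicate 2 is the lowest library for 19. These counts were not set beside all genes.

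DDC against normal diet in macrophages called none of the 38 genes, as only 0.0252% of 27759 genes tested were called. DESeq2 called none of the 38, and 4 of 38 had an unadjusted p under 0.05 with edgeR, all higher in DDC. The 38 genes had a median log2 fold change of 0.76 and all genes -0.62, and median-of-ratios scaling gave 0.28 and -1.12. For 23 of 38, both DDC libraries were above both normal-diet libraries, as for 23.4% of all genes, and 0 were below, against 32.3%. Oasl1 was at 80.9 and 70.6 CPM in DDC and 7.92 and 22.7 on normal diet (log2 fold change 2.31, SE 0.95, adjusted p = 0.46). Mx1 was at 15.7 and 33.2 CPM in DDC, against 7.74 and 5.32 on normal diet (1.90, SE 0.78), and Ubd at 24.0 and 5.62, against 1.69 and 0, with adjusted p = 0.46 and 0.46.

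Between cell types on DDC, Ly6C-high against Ly6C-low monocytes called 0 of 38 and 0% of all genes with edgeR, with 1 of 38 at an unadjusted p under 0.05 and 0 by DESeq2. That gene was Ifitm3, at 2872 and 1634 CPM in Ly6C-high and 870.3 and 1117 in Ly6C-low monocytes (log2 fold change 1.18, SE 0.55, adjusted p = 1). DDC macrophages against the mean of the 2 monocyte groups called 0 of 38 (0.731% of all genes), with 5 at an unadjusted p under 0.05 and 2 called by DESeq2. The smallest adjusted p was that of Lgals3bp, at 539 and 428 CPM in macrophages and 100.1 to 155 in monocytes (log2 fold change 1.92, SE 0.44, adjusted p = 0.0533). Ifi27 (1.59) and Bst2 (1.28) followed, at adjusted p = 0.0869 and 0.583. Neutrophils against monocytes called 1 of 38 (1.67% of all genes): Ifi44 was at 23.0 and 34.3 CPM in neutrophils and 102 to 164 in monocytes (log2 fold change -2.18, SE 0.51, adjusted p = 0.0348). Its call was lost with median-of-ratios scaling (adjusted p = 0.0537), in the fit of the compared groups (0.0830) and without Ly6C-low monocyte replicate 2 (0.0721). Rsad2 was 1.91 and Mx1 -2.91 in the same comparison (adjusted p = 0.105 and 0.0683). Without neutrophil replicate 1, 12 of the 38 genes were called, 11 of them lower, as 3323 of all genes were called in that fit against 464 with all libraries. Without replicate 2 there were 2 of the 38 and 842 of all genes, and median-of-ratios scaling called 2, both higher, and gave a median log2 fold change of -0.17 over the 38 genes and 0.32 over all genes, where TMM gave -0.50 and 0.00.

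T cell libraries against monocytes called 0 of 38 (1.66% of all genes), with 6 at an unadjusted p under 0.05 and 3 called by DESeq2. The smallest adjusted p were those of Ifit2, at 101 and 26.1 CPM against 4.54 to 18.7 in monocytes (log2 fold change 2.27, SE 0.69, adjusted p = 0.126), of Ubd, at 46.3 and 31.8 against 0 to 11.4 (log2 fold change 4.18, SE 1.28, adjusted p = 0.129), and of Trim21, at 0.563 and 4.77 against 12.5 to 32.0 (log2 fold change -2.93, SE 1.06, adjusted p = 0.213). Without T cell replicate 2, which leaves 1 library in that group, some of the 38 genes were called.

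Set beside the immune libraries, 9 genes had IL-6 STAT3KO hepatocyte libraries above every immune library: Ifih1, Zbp1, Ifit1, Herc6, Ubd, Dtx3l, Parp9, Parp14 and Bst2. The same held for 15.6% of the 13764 genes tested in both tables. By group mean, 16 of 38 were higher in IL-6 STAT3KO hepatocytes than in any immune group, as were 23.7% of those genes. Both statements set levels across tables that were scaled separately.

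Counts of some members are uncertain. By the annotation, 12 of the 38 genes share exon sequence with another gene, on the opposite strand for Dhx58, Dtx3l, Parp9, Eif2ak2, Usp18, Oasl1, Ifi35 and Trafd1 and on the same strand for Herc6, Parp14, Rtp4 and Sp100. Oas1a, Ifit3, Trim30a and the Mx genes have close relatives between which reads could be split.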

How the data were processed

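The authors deposited raw gene counts in 2 tables, 1 for 13 hepatocyte and 1 for 12 immune libraries, and all values derive from these counts. Per the labels' protocols, cells of perfused liver were sorted and TruSeq libraries made from their RNA. Per the submitters' processing notes, mm10, STAR, HTSeq and DESeq2 were used, with versions and strand setting not given in the sources used here. The hepatocyte table had no gene with a total under 10 counts, so rarer genes were not analysed there. All columns were matched to a sample.

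The 38 genes and all lists were chosen with earlier results of these data known. Symbols, coordinates and exon lengths came from GENCODE M21, and promoter windows and sequences from RefSeq (GRCm38.p6). An EGFP row was left out of depth and models. The software was R 4.3.3, limma 3.58.1 and edgeR 4.0.16, with DESeq2 1.42.0 as an alternative. Each table was fitted whole, with 1 term per group, by edgeR's quasi-likelihood test with TMM scaling after filterByExpr by group, leaving 14339 hepatocyte genes (8 residual degrees of freedom) and 27759 immune genes (6). A gene was called where its p, adjusted by Benjamini and Hochberg's method across the genes tested in the comparison, was under 0.05. Standard errors were taken as the size of the log2 fold change over the square root of F, and the 95% intervals given for DDC STAT3KO against DDC are approximate and derive from them. The code was tested on simulated counts.

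Library values with statistics are given, per comparison, for up to 8 called genes with the smallest adjusted p, for up to 3 with the largest fold change in each direction and for those called against the main direction, or for the 3 with the smallest adjusted p where 3 or fewer were called. Other genes are given by counts, levels or fold changes. Other marker lists gave these counts of called genes in IL-6 STAT3KO against the GFP plasmid: monocyte 1 of 6, neutrophil 0 of 3, dendritic cell 0 of 3, endothelial 0 of 5, stellate cell 0 of 5, cholangiocyte 0 of 1 and hepatocyte 0 of 7 markers tested by edgeR. At an unadjusted p under 0.05 the lists with 0 called gave 2 neutrophil, 1 endothelial and 1 hepatocyte marker. No NK cell or B cell marker was tested in hepatocytes. The alternatives were median-of-ratios factors, no filter, a replicate block, fitting the compared groups alone, DESeq2 and leaving out single libraries, and also dropping IL-6 replicate 3 with DDC STAT3KO replicate 3, or the libraries labelled T cell. Of the pathway genes, 1 is not reported here.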

Additional observations from a re-analysis of the deposited data

Results flagged for a closer look

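The change from IL-6 to IL-6 STAT3KO differed from that of DDC to DDC STAT3KO by the interaction test for 24 of the 38 genes. Each had the larger change under IL-6. On the log2 scale the interaction was 2.64 for Samd9l, 6.54 for Ifi44, 6.52 for Oasl2, 5.77 for Ifit1, 5.49 for Ifit3, 3.27 for Rtp4, 1.80 for Ifih1 and 4.07 for Usp18. IL-6 STAT3KO mice also differed from IL-6 mice in floxed alleles and in having virus, which cannot be told apart from STAT3 deletion.

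The EGFP transgene row, which entered no comparison, was at 424 per 1000000 counts in IL-6 replicate 3, against 2.12 and 2.38 in the 2 libraries with the GFP plasmid and 7.08 and 5.06 in the other IL-6 libraries. The 2 DDC libraries, from mice given AAV-TBG-GFP, were at 1309 and 1496, and those of IL-6 STAT3KO and DDC STAT3KO at 0 to 1.32.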

How the results depend on the processing

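None of the 134 called differences of single genes, counted per comparison, changed direction in the alternatives run; DESeq2 lost 0 of these calls, median-of-ratios factors 2, no filter 4, the replicate block 6, the fit of the compared groups 11, and leaving out GFP replicate 1 or 2 lost 34 and 32. Counts of called genes among the 38 stayed within 1.5 times outside the fits that leave out a library for all 7 hepatocyte comparisons. With 1 library left out in turn, they ranged from 2 to 7 in IL-6 against GFP (8 with all libraries), 32 to 34 in IL-6 STAT3KO against IL-6 (33), 10 to 32 in IL-6 STAT3KO against GFP (31), 2 to 6 in DDC against GFP (11), 21 to 28 in IL-6 STAT3KO against DDC STAT3KO (26) and 20 to 28 in the interaction (24), and were 0 throughout in DDC STAT3KO against DDC. The lowest counts against GFP came from leaving out a GFP library. Among immune cells they were 0 to 1 for macrophages against monocytes (0), 0 to 12 for neutrophils (1) and 0 to 5 for the libraries labelled T cell (0), and 0 throughout in the other 2. Macrophages against monocytes gave 2 with median-of-ratios factors, no filter or DESeq2, 4 in the fit of the compared groups and 1 with the replicate block. Neutrophils gave 2 with median-of-ratios factors, 5 with no filter or DESeq2, 0 in the fit of the compared groups and 3 without the libraries labelled T cell. Those libraries gave 2 with no filter and 3 with DESeq2. The causes were not tested. Replicate numbers were checked for pairing: 4 of 23 same-numbered hepatocyte pairs and 2 of 30 immune pairs deviated together with a correlation over 0.1. The highest were 0.318 and 0.135. The hepatocyte median was 0.04 for same-numbered and -0.03 for different-numbered pairs. Deviations in a group of 2 mirror each other, so the check cannot decide on partial pairing. The replicate block gave 7, 34, 31, 9, 0, 26 and 24 called genes in IL-6 against GFP, IL-6 STAT3KO against IL-6 and against GFP, DDC against GFP, DDC STAT3KO against DDC, IL-6 STAT3KO against DDC STAT3KO and the interaction, and 0 or 1 in immune comparisons; it lost the calls of Lgals3bp in IL-6 against GFP (adjusted p = 0.0545), Trim25 in IL-6 STAT3KO relative to IL-6 (0.0612) or to GFP (0.0597) and in the interaction (0.0674), and Ifi44 (0.0515) and Oasl2 (0.0613) in DDC against GFP. Counts over all genes moved more. In IL-6 STAT3KO against GFP they were 448, against 1146 with DESeq2, 927 in the fit of the compared groups, 1175 without IL-6 replicate 3 and DDC STAT3KO replicate 3, and 89 and 102 without a GFP library. IL-6 against GFP gave 3719, or 4392 in the fit of the compared groups. DDC against GFP gave 2674, or 4415 in the fit of the compared groups and 4061 without IL-6 replicate 3 and DDC STAT3KO replicate 3. IL-6 STAT3KO against DDC STAT3KO gave 1410, 558 in the fit of the compared groups, 2285 without both of those libraries and 602 to 1921 with a library left out. The interaction gave 1187, 1881 with DESeq2, 2163 without both of those libraries and 459 to 1611 with a library left out, and IL-6 STAT3KO against IL-6 3781, or 2541 at the lowest. DESeq2 called 660, 36, 766, 2228 and 2373 genes in the 5 immune comparisons, where edgeR called 7, 0, 203, 464 and 460. Depth limits the genes under 10 counts in a library (Oas1a, Oas2, Oas3, Oasl2, Mx1, Ubd and Ifi44), and the immune fit, with a biological coefficient of variation of 1.00, limits all immune comparisons.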
